A study of Mus musculus and Homo sapiens with 20 samples.

Results

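Homologous recombination and Fanconi anaemia repair genes were described across 3 cell lines treated with an HSP90 inhibitor. The set was a fixed list of 34 gene symbols, and a gene was taken where a row of the RNA-seq count table carried that symbol, ignoring case. The matching rule used no measured value, but the list was chosen with earlier results of these data known. Each of the 34 genes was found once in every table, out of 43626 rows of either mouse table and 63568 rows of the human one. All 34 passed the filter on low counts in each line, among 11703 tested genes in HPC-7, 12340 in MEF and 13456 in K562.

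HPC-7 cells are blood-forming precursors of mouse origin, and MEF are fibroblasts taken from mouse embryos. K562 is an established human line from a chronic myeloid leukaemia. Every line had 3 libraries of treated cells (HSP90i) and 3 of untreated ones (Control), whose count columns were named for DMSO, the solvent. Treated cells had received NVP-AUY922, an inhibitor that occupies the ATP pocket of HSP90 chaperones, for 16 h, at 50 nM for HPC-7, 200 nM for MEF and 300 nM for K562. Line, species and dose therefore changed together and cannot be told apart. Nothing in the labels tells whether replicates came from separate cultures. The p-values thus reflect the spread of these libraries alone, which may be technical.

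Homologous recombination repairs a broken chromosome by copying the sister chromatid, and it works after DNA replication has begun. The MRE11-RAD50-NBN complex senses the break, RBBP8 and EXO1 cut back its ends, and BRCA1, PALB2 and BRCA2 prepare the single strand that invades the intact copy. The Fanconi proteins act when both DNA strands are linked by a chemical crosslink: a core complex attaches ubiquitin to FANCI and FANCD2, which then recruit nucleases and recombination proteins. The ATM and ATR kinases signal the damage and halt the cell cycle. Many of these genes are transcribed most in dividing cells, and haematopoietic stem cells are the tissue most affected when Fanconi genes are lost.

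Levels below are CPM (counts per 1000000 counts of the library, with TMM scaling), printed for replicates 1, 2 and 3 in that order. Differences are log2 fold changes of HSP90i over Control with their standard error, n = 3 per group. A gene was called where its adjusted p (edgeR's quasi-likelihood test, Benjamini-Hochberg adjustment over all tested genes) was below 0.05. Library totals lay between 10131491 and 16859394 counts for HPC-7, 10542305 and 22872539 for MEF, and 7936066 and 10950573 for K562. The lowest count of any of the 34 genes in a library was 4 for HPC-7, 3 for MEF and 32 for K562. Because the RNA came from bulk cultures, fewer cells expressing a gene and less RNA per cell cannot be told apart. HSPA8, a constitutive HSP70 gene that the heat shock response induces, rose in every line, by 3.91 ± 0.13 for K562, 2.52 ± 0.07 for MEF and 1.596 ± 0.077 for HPC-7. HSP90AA1, which encodes a target of the drug, rose in K562 (3.20 ± 0.13) and MEF (1.21 ± 0.22) and fell in HPC-7 (−0.62 ± 0.15, adjusted p = 0.00345).

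Most markers of each labelled line passed the filter on low counts. These were 14 of 15 fibroblast markers in MEF, and blood markers in HPC-7 (13 of the 14 found) and K562 (14 of 15). Levels are given below mainly as sums, which can rest on few genes. The 15 fibroblast markers summed to between 24184 and 25718 CPM in the MEF Controls and to between 31098 and 32048 CPM after treatment, with 8 called higher and 4 lower. Blood markers summed to 224 to 274 CPM in the MEF Controls, mostly from Cd34 (181 CPM), and to 196 to 213 CPM after treatment, while Ptprc, Kit, Tal1 and Lmo2 averaged between 0.285 and 2.47 CPM in the Controls. In the HPC-7 libraries the blood markers summed to 3726 to 3753 CPM without and 5829 to 6337 CPM with the inhibitor (9 called higher and 2 lower). The fibroblast sum there was 179 to 203 CPM without and 269 to 310.4 CPM with it, mostly from Pdgfrb (192 CPM in the Controls), while Col1a1, Col1a2 and Col3a1 were below 1 CPM and Dcn, Lum, Thy1 and Lox had no count. Blood markers in K562 summed to 1631 to 1782 CPM without and 1101 to 1133 CPM with the inhibitor (5 called lower), with CD34 at 0, and fibroblast markers to 50.4 to 51.8 and 57.3 to 66.2 CPM. The part of these shifts in the changes of the repair genes was not tested. In each line 1 library stood apart from its group in its values of the repair genes. K562 Control 1 lay below both other Controls for 25 of the 34 genes and MEF Control 3 for 21. HPC-7 HSP90i 2 lay above both other treated libraries for 28. The shares over all tested genes were not computed, so these counts have no background. K562 Control 1 also departed for other lists. Its median log2(CPM + 1) relative to the Control mean was −0.17 for other pathway genes and 0.27 for blood markers. Without HPC-7 HSP90i 2 the fold change on the linear scale moved by over 1.5 times for 7 genes, and leaving out K562 Control 1 changed calls. Those values are given with the genes.

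Most of the repair genes fell in both mouse lines, and few were called in K562. In MEF 31 of the 34 genes were called lower and 0 higher, where 38.2% of all tested genes were called lower and 35.1% higher. In HPC-7 30 were called lower and 1 higher, against 36.6% and 36.5% of all tested genes. Of these, 25 in MEF and 24 in HPC-7 fell at least 2-fold, beside 13.1% and 13.7% of all tested genes. In both lines 28 genes were called lower, beside 26.1% of the 10371 genes tested in both. The median log2 fold change over the 34 genes was −1.53 in MEF and −1.61 in HPC-7, while the median over all tested genes was −0.01 in MEF and −0.00 in HPC-7. In K562 2 genes were called lower (FANCE and FANCL) and 0 higher, against 5.97% and 5.11% of all tested genes. The K562 median was −0.23 beside −0.02 over all tested genes. Scaling moved the K562 background: with library size alone 3.23% of all tested genes were higher and 8.88% lower (median −0.13), and with upper quartile factors 3.98% and 7.29%. With all libraries 0 of the 34 were called lower in all 3 lines, but without K562 Control 1 this held for 14. Leaving out that library also raised the share of all tested K562 genes called lower from 5.97% to 14.6%. The share of all genes lower in all 3 lines was not computed, so the 14 cannot be set against a background. At an unadjusted p under 0.05, edgeR gave 9 lower and 1 higher in K562, beside 1989 and 1642 of all 13456 tested genes. In MEF it gave 31 lower and 0 higher, beside 4819 and 4477 of 12340. The HPC-7 counts were 30 lower and 1 higher, beside 4391 and 4397 of 11703. DESeq2 called 3 lower and 1 higher in K562, beside 7.19% and 7.01% of all tested genes. It called 30 and 0 in MEF (33.5% and 33%) and 30 and 1 in HPC-7 (34.2% and 34.7%).

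Without a model, all 3 treated values lay below all 3 Control values for 31 genes in MEF and 30 in HPC-7, against 39.3% and 38.9% of all tested genes. In K562 this held for 11 genes, against 17.8%, and the treated values lay wholly above the Controls for 3 genes, against 17.4%. The remaining 20 genes overlapped between the K562 groups. Without HPC-7 HSP90i 2 the HPC-7 calls were again 30 lower and 1 higher (median −1.82), beside 37.2% and 36.7% of all tested genes. Without MEF Control 3 there were 30 lower calls in MEF (median −1.66), beside 37.1% of all tested genes.

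**Figure D1:**
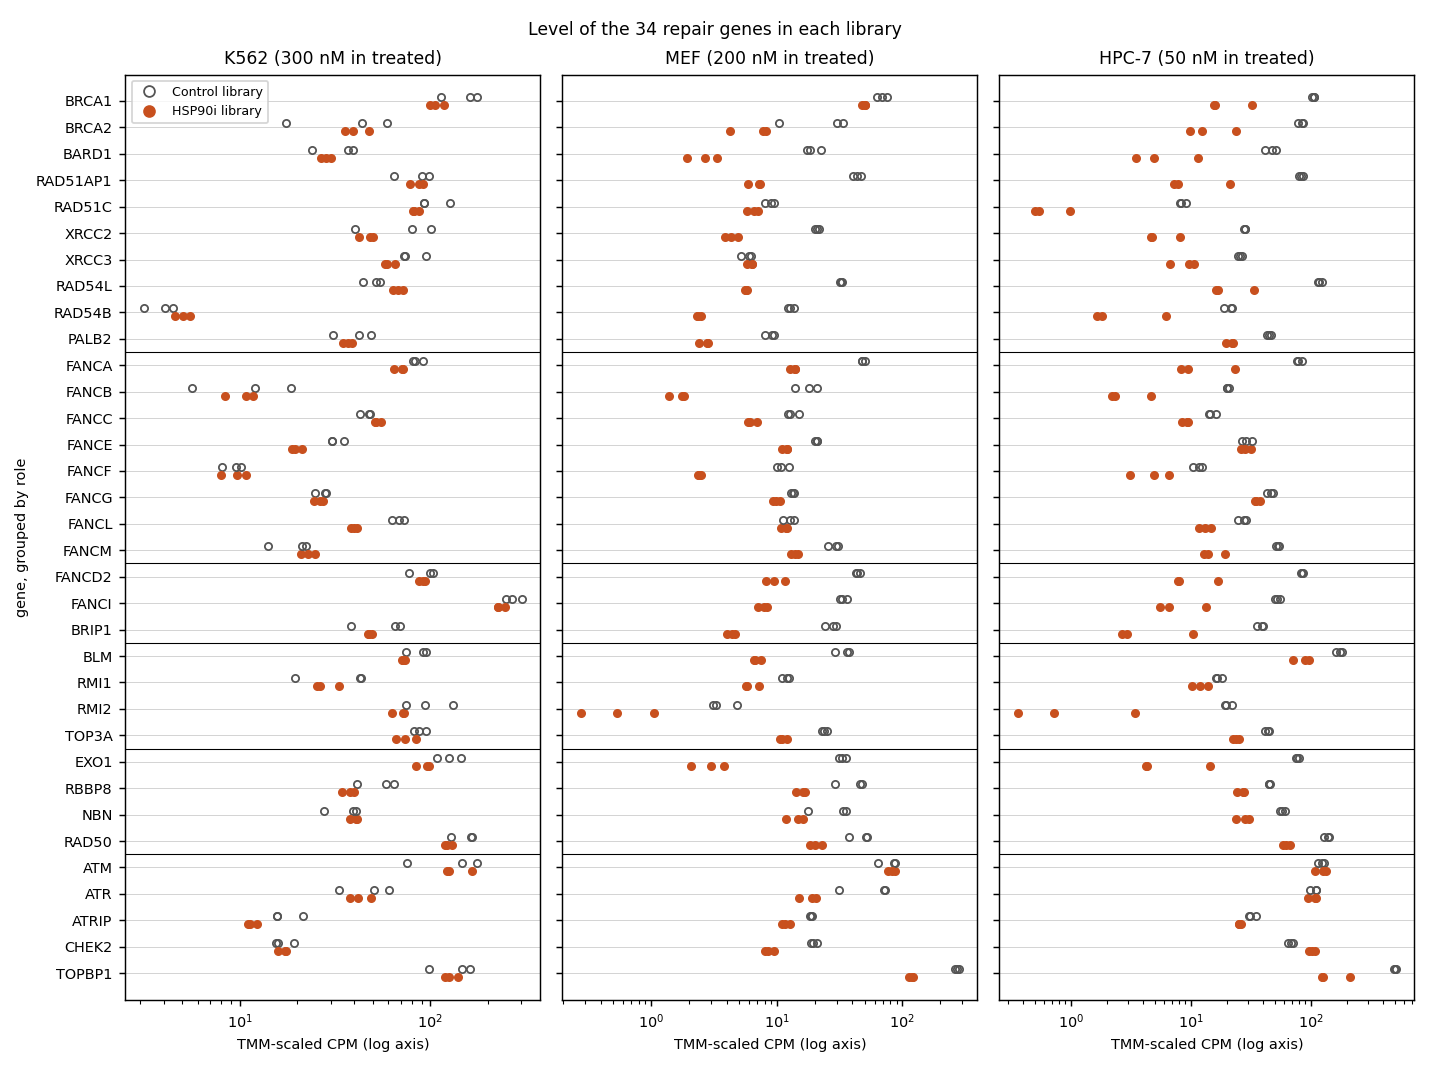
Level of each of the 34 genes in every library, as TMM-scaled CPM on a log axis, in K562, MEF and HPC-7; open circles are Control and filled circles HSP90i libraries, and horizontal lines separate the roles. The treated circles lie wholly to the left of the Control circles for 31 genes in MEF and 30 in HPC-7 but for 11 in K562.

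How many K562 genes were called depended on K562 Control 1. It was at least 1.5 times below the mean of the other Controls for 11 genes, among them BRCA2, XRCC2, ATM and ATR, and at least 1.5 times above it for RMI2. The shares over all tested genes were not computed. With all 6 libraries 2 genes were called, while without K562 Control 1 there were 18 lower and 1 higher (RAD54L), where 14.6% of 13709 tested genes were lower and 14% higher. A fit that gave each library its own weight (limma-voom) called 19 lower and 1 higher, beside 21.2% and 20.4% of all tested genes. Leaving out any 1 of the 3 treated libraries left 0 calls in edgeR's test, with 4 to 6 genes lower at an unadjusted p under 0.05. The median standard error of the 34 genes on the log2 scale was 0.18 for K562, 0.11 for MEF and 0.16 for HPC-7.

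**Figure D2:**
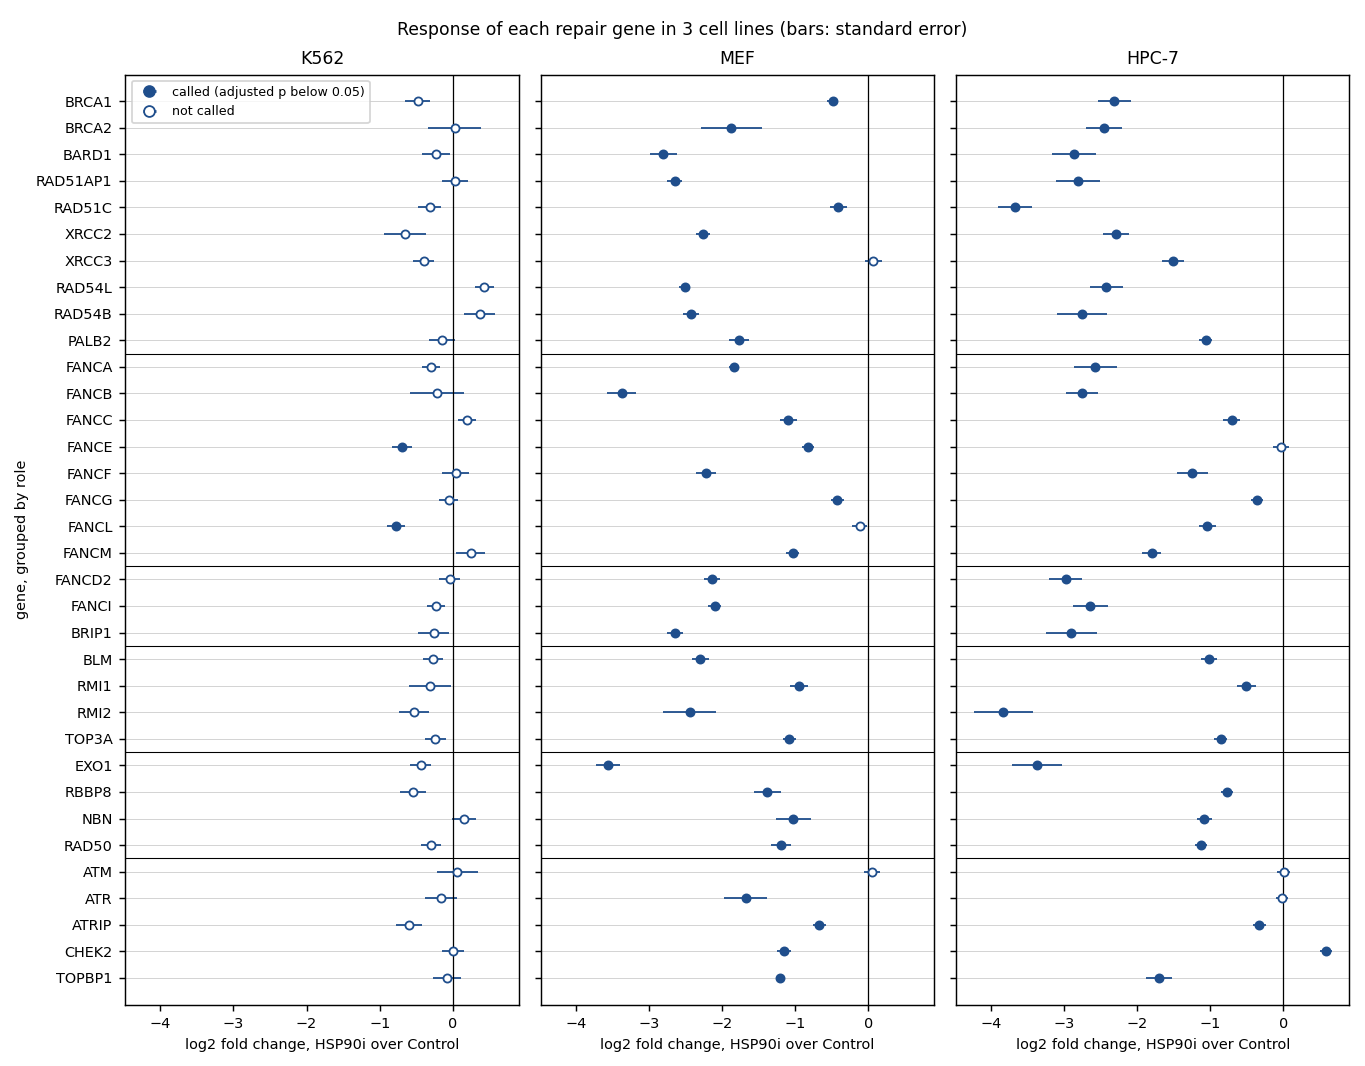
Log2 fold change of HSP90i over Control for each gene in K562, MEF and HPC-7, with bars of 1 standard error; filled points were called and open points were not. In K562 2 points are filled, both left of 0, while in MEF 31 and in HPC-7 30 filled points lie left of 0 and CHEK2 in HPC-7 lies right of it.

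Promoter sequences are shown for the 5 genes with the largest called differences in response between the mouse lines, so that their motifs can be read beside the values that follow. The windows hold 250 bases before to 50 after an annotated start, from RefSeq on GRCm38.p6, written in the direction of the gene. Capitals mark either strand of E2F letters (TTTCCCGC, TTTGGCGC, TTCCCGCC or TTGGCGCC, which can overlap one another) or of CCAAT, the letters bound by NF-Y. E2F factors drive transcription at the start of S phase. Rad51c lies at chr11:87404905-87405204 and Brca1 at chr11:101551906-101552205, Xrcc3 at chr12:111813830-111814129, all on the minus strand. Chek2 lies at chr5:110839733-110840032 and Atr at chr9:95857347-95857646, on the plus strand.
Rad51c: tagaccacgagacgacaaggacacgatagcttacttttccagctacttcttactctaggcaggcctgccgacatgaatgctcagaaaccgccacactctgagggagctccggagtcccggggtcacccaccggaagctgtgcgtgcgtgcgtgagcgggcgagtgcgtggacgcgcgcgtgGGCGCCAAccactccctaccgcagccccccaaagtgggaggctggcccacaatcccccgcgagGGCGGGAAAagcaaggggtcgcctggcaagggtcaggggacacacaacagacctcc
Brca1: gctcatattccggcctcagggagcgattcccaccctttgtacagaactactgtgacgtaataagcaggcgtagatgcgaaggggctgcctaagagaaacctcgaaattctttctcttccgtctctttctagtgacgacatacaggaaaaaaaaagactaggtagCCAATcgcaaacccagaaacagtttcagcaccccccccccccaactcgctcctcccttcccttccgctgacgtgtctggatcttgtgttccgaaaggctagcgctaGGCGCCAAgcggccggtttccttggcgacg
Xrcc3: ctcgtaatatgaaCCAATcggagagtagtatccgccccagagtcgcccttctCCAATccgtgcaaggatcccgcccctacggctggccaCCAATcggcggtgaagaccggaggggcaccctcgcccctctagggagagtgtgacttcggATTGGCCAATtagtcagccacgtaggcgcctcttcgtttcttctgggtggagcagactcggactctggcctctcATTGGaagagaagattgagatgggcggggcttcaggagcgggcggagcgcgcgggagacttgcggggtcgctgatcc
Chek2: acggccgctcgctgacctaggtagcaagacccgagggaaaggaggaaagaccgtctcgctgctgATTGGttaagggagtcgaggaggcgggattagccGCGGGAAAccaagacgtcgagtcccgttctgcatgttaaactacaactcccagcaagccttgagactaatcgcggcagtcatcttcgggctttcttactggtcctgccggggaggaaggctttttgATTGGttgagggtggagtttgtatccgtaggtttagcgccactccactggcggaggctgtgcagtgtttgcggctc
Atr: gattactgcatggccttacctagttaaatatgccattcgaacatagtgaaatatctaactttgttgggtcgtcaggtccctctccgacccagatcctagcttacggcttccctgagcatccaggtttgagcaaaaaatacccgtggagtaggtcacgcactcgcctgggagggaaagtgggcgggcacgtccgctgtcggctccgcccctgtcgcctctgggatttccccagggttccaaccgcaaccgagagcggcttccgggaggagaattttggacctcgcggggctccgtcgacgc
The Rad51c window held 3 E2F matches, of which 1 pair overlapped, and Brca1 and Chek2 held 1 each. Xrcc3 held 6 CCAAT matches, Chek2 2 and Brca1 1, and the Atr window held neither motif. A further Rad51c window at chr11:87404457-87404756 held no match.

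No window was given for Exo1, Rmi2, Rad54b, Fancd2, Xrcc2, Rad50, Nbn, Rbbp8 and Top3a, among them several of the largest falls. Windows were given for the other 25 of the 34 genes. E2F letters stood in 10 of them (40%), in 4.34% of the windows of 27025 genes and in 8.13% of those of 9817 tested genes. CCAAT stood in 17 (68%), against 41.1% and 43%. The CHR letters TTTGAA, known from genes of late cell cycle, stood in 1 (4%, Bard1), against 20.2% and 13.9%. A heat shock element core, GAANNTTC or TTCNNGAA, stood in 2 (8%, Bard1 and Fancm), against 17% and 13.9%. Both strands were searched, and a match is a description of letters and not a bound site. The 10 genes with E2F letters had a median log2 fold change of −1.09 in MEF and −2.38 in HPC-7, and the 15 genes without them −1.68 and −1.06. For CCAAT the medians were −1.15 in MEF and −1.245 in HPC-7 for the 17 genes with it, and −1.44 and −2.08 for those without.

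The BRCA mediators and the genes of strand exchange fell throughout in HPC-7, where 10 of 10 were called lower with a median of −2.44. In MEF 9 of 10 were called lower with a median of −2.06, and in K562 0 of 10 were called by edgeR (2 lower and 1 higher at an unadjusted p under 0.05, and 1 higher with DESeq2). Brca1, the tumour suppressor that promotes end resection, was at 68.8, 75.2 and 63.0 CPM in the MEF Controls and 50.0, 47.4 and 50.1 CPM after treatment (−0.49 ± 0.07, adjusted p = 0.00027). In HPC-7 it was at 106, 105 and 103 CPM in the Control libraries and 15.8, 32.3 and 15.7 CPM in the HSP90i libraries (−2.31 ± 0.23), with an adjusted p of 9.46e-06. The groups were apart in both mouse lines. BRCA1 in K562 was at 114, 161 and 176 CPM without and 99.9, 105 and 118 CPM with the inhibitor (−0.48 ± 0.18, adjusted p = 0.118), and the lowest Control value lay among the treated ones. Without K562 Control 1 it was called lower (−0.65, adjusted p = 0.000168).

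Bard1, the partner of Brca1 in a ubiquitin ligase, was at 18.4, 22.5 and 17.3 CPM in the Control libraries and 3.33, 1.95 and 2.67 CPM in the HSP90i libraries (−2.80 ± 0.18) in MEF. HPC-7 Bard1 levels were 51.3, 47.6 and 41.3 CPM without and 3.49, 11.6 and 4.93 CPM with the inhibitor (−2.86 ± 0.30), and the log2 fold change was −3.51 without HSP90i 2. Brca2, a mediator of strand exchange that binds single-stranded DNA, was at 33.9, 30.3 and 10.4 CPM in the Control libraries and 8.26, 4.27 and 7.74 CPM in the HSP90i libraries (−1.87 ± 0.41) in MEF. MEF Control 3 stood nearer to the treated libraries than to the other Controls, and without it the log2 fold change was −2.17. In HPC-7 Brca2 was at 84.1, 86.8 and 78.3 CPM without and 9.81, 23.9 and 12.5 CPM with the inhibitor (−2.46 ± 0.24). BRCA2 in K562 was at 17.4, 43.8 and 59.4 CPM without and 35.6, 39.4 and 47.5 CPM with the inhibitor (0.02 ± 0.37), where Control 1 was below every treated library and the other Controls were at or above most of them. Palb2, which joins Brca1 to Brca2, was at 9.51, 9.19 and 8.09 CPM without and 2.42, 2.79 and 2.85 CPM with the inhibitor (−1.77 ± 0.13) in MEF and at 46.3, 44.7 and 42.8 CPM without and 19.8, 22.1 and 22.3 CPM with the inhibitor (−1.06 ± 0.09) in HPC-7. BARD1 and PALB2 overlapped between the K562 groups (−0.23 ± 0.20 and −0.14 ± 0.18) and were called lower without K562 Control 1 (−0.43, adjusted p = 0.0075 and −0.31, adjusted p = 0.0399).

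Rad51c, Xrcc2 and Xrcc3, which assist strand exchange, did not move together. Xrcc2 was at 20.8, 21.7 and 20.3 CPM without and 4.30, 3.90 and 4.89 CPM with the inhibitor (−2.26 ± 0.10) in MEF and at 28.5, 28.2 and 27.8 CPM without and 4.72, 8.13 and 4.66 CPM with the inhibitor (−2.29 ± 0.18) in HPC-7, and the difference between these responses was not called (0.15 ± 0.22). Rad51c was at 8.06, 8.998 and 9.51 CPM in the Control libraries and 7.15, 5.85 and 6.59 CPM in the HSP90i libraries (−0.41 ± 0.12) in MEF, with an adjusted p of 0.0148. It lost this call in 4 alternatives, without MEF Control 3 (adjusted p = 0.0589), with upper quartile factors (0.0535), with DESeq2 (0.0967) and in the joint mouse fit (0.0656). Brca1 lost its MEF call in the joint fit (0.0779). HPC-7 levels of Rad51c were 8.17, 9.07 and 8.35 CPM in the Control libraries and 0.509, 0.980 and 0.548 CPM in the HSP90i libraries (−3.67 ± 0.23), where the treated libraries held 7, 10 and 6 counts. Xrcc3 was at 6.08, 5.21 and 6.28 CPM without and 6.33, 5.76 and 6.41 CPM with the inhibitor (0.07 ± 0.12) in MEF, where the groups overlapped (adjusted p = 0.622). HPC-7 levels of Xrcc3 were 24.9, 26.6 and 25.6 CPM without and 9.59, 10.7 and 6.76 CPM with the inhibitor (−1.51 ± 0.15). Every treated HPC-7 library was thus below every Control for Xrcc3, while its MEF values mixed. In K562 RAD51C was at 128, 92.5 and 92.2 CPM without and 82.3, 87.0 and 81.3 CPM with the inhibitor (−0.32 ± 0.16) and XRCC3 at 94.6, 73.9 and 72.6 CPM without and 65.3, 59.3 and 57.9 CPM with the inhibitor (−0.40 ± 0.15), each wholly below the Controls but not called (adjusted p = 0.24 and 0.119). XRCC2 in K562 was at 40.4, 80.5 and 101 CPM without and 42.2, 48.5 and 50.2 CPM with the inhibitor (−0.66 ± 0.29), with overlap and an adjusted p of 0.189. It was called lower without K562 Control 1 (−0.95, adjusted p = 3.46e-05) and with no filter on low counts (0.0321), and XRCC3 without Control 1 (−0.27, adjusted p = 0.0439) and with library size alone (0.0479).

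Rad54l, Rad54b and Rad51ap1 fell in both mouse lines. Rad54l, which remodels the joint molecule, was at 32.0, 33.2 and 32.4 CPM in the Control libraries and 5.80, 5.57 and 5.70 CPM in the HSP90i libraries (−2.51 ± 0.08) in MEF, with each group close together. In HPC-7 it was at 117, 116 and 123 CPM without and 16.3, 33.7 and 16.99 CPM with the inhibitor (−2.43 ± 0.22), with treated library 2 well above the other treated libraries. Its paralog Rad54b was at 12.3, 13.6 and 12.7 CPM without and 2.37, 2.32 and 2.49 CPM with the inhibitor (−2.42 ± 0.11) in MEF and 22.2, 21.8 and 19.03 CPM without and 1.82, 6.27 and 1.64 CPM with the inhibitor (−2.75 ± 0.34) in HPC-7. Rad51ap1, which stimulates strand invasion, was at 40.4, 46.7 and 43.7 CPM without and 7.30, 5.94 and 7.39 CPM with the inhibitor (−2.65 ± 0.10) in MEF and 86.9, 79.2 and 82.4 CPM without and 7.85, 21.1 and 7.31 CPM with the inhibitor (−2.81 ± 0.30) in HPC-7. Without HPC-7 HSP90i 2 the log2 fold changes there were −3.60 for Rad54b and −3.45 for Rad51ap1. In K562 the translocase genes lay the other way. RAD54L was at 54.5, 44.5 and 52.0 CPM without and 68.1, 64.1 and 71.5 CPM with the inhibitor (0.43 ± 0.13) and RAD54B at 3.15, 4.49 and 4.06 CPM without and 5.02, 5.50 and 4.56 CPM with the inhibitor (0.36 ± 0.21), with every treated value above every Control value and neither called (adjusted p = 0.0741 and 0.322). RAD54L was called higher without K562 Control 1 (adjusted p = 0.00229) and with DESeq2 (0.0384). Over the called genes of this group the adjusted p ran from 2.92e-08 to 0.0148 in MEF, and the HPC-7 range was 8.83e-07 to 4.62e-05.

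The Fanconi core complex, the multi-subunit ubiquitin ligase of the pathway, was lower for 7 of 8 genes in MEF (median −1.06), 7 of 8 in HPC-7 (median −1.14) and 2 of 8 in K562 (median −0.14). The subunit not called differed, Fancl in MEF and Fance in HPC-7. FANCL, the catalytic subunit, was in K562 at 72.9, 68.7 and 62.6 CPM in the Control libraries and 39.7, 41.4 and 38.5 CPM in the HSP90i libraries (−0.77 ± 0.13), with an adjusted p of 0.0076. FANCE, which contacts FANCD2, was in K562 at 35.4, 30.4 and 30.4 CPM in the Control libraries and 18.8, 21.2 and 19.5 CPM in the HSP90i libraries (−0.70 ± 0.14), with an adjusted p of 0.0155. Both K562 genes had all treated values below all Controls. These calls had narrow margins: without any 1 treated library the adjusted p of FANCL was between 0.0548 and 0.0653 and that of FANCE between 0.0700 and 0.104, and without Control 2 it was 0.0560 for FANCE.

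In the mouse lines the same subunits split. Fancl was at 12.7, 13.6 and 11.2 CPM without and 11.8, 10.8 and 12.1 CPM with the inhibitor (−0.12 ± 0.10) in MEF, where the groups overlapped (adjusted p = 0.324), and at 27.5, 28.7 and 24.8 CPM without and 11.8, 14.7 and 13.1 CPM with the inhibitor (−1.04 ± 0.11) in HPC-7, where they did not. Fance showed the reverse, at 21.0, 21.0 and 20.1 CPM without and 12.03, 10.96 and 12.01 CPM with the inhibitor (−0.82 ± 0.08) in MEF and at 26.8, 29.0 and 32.6 CPM without and 31.8, 28.1 and 26.0 CPM with the inhibitor (−0.03 ± 0.11) in HPC-7 (adjusted p = 0.793). Fancb, a subunit of the catalytic module encoded on the X chromosome, was at 18.2, 20.9 and 13.9 CPM in the Control libraries and 1.84, 1.39 and 1.78 CPM in the HSP90i libraries (−3.37 ± 0.20) in MEF. It was at 20.1, 21.0 and 20.03 CPM without and 2.33, 4.70 and 2.19 CPM with the inhibitor (−2.76 ± 0.22) in HPC-7, and was wholly lower in both lines. Fanca, the most often mutated Fanconi gene, was at 50.3, 48.1 and 47.7 CPM without and 14.1, 12.8 and 13.9 CPM with the inhibitor (−1.84 ± 0.07) in MEF and at 78.7, 77.4 and 84.2 CPM without and 9.45, 23.4 and 8.22 CPM with the inhibitor (−2.57 ± 0.29) in HPC-7. Here too HPC-7 treated library 2 was the highest of its group, and the log2 fold change was −3.18 without it. FANCA in K562 was at 80.8, 82.9 and 91.1 CPM without and 71.3, 64.5 and 71.6 CPM with the inhibitor (−0.30 ± 0.12), wholly lower and not called (adjusted p = 0.166), but called lower without Control 1 (−0.33, adjusted p = 0.017).

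Fancf, an adaptor subunit, was at 12.5, 10.1 and 10.8 CPM without and 2.37, 2.51 and 2.40 CPM with the inhibitor (−2.22 ± 0.14) in MEF and at 12.3, 10.4 and 11.8 CPM without and 4.94, 6.56 and 3.11 CPM with the inhibitor (−1.25 ± 0.21) in HPC-7. Fancm, the DNA translocase that anchors the complex on chromatin, was at 29.7, 30.5 and 25.5 CPM without and 14.1, 13.004 and 14.8 CPM with the inhibitor (−1.03 ± 0.09) in MEF and at 54.7, 53.6 and 51.3 CPM without and 12.8, 19.3 and 14.0 CPM with the inhibitor (−1.80 ± 0.13) in HPC-7. Fancc was at 14.9, 12.2 and 12.7 CPM without and 6.09, 6.97 and 5.96 CPM with the inhibitor (−1.09 ± 0.12) in MEF and at 14.1, 14.5 and 16.3 CPM without and 9.30, 9.50 and 8.49 CPM with the inhibitor (−0.71 ± 0.12) in HPC-7. Fancg fell least among the subunits called in both lines, at 13.5, 13.6 and 13.03 CPM without and 9.91, 9.38 and 10.7 CPM with the inhibitor (−0.42 ± 0.09) in MEF and at 48.5, 46.5 and 43.3 CPM without and 34.4, 37.7 and 35.3 CPM with the inhibitor (−0.37 ± 0.08) in HPC-7. FANCC in K562 was the third gene with every treated value above every Control value, at 42.8, 48.0 and 48.2 CPM without and 55.4, 52.1 and 51.2 CPM with the inhibitor (0.19 ± 0.12) (adjusted p = 0.365). The other 4 subunits overlapped between the K562 groups, with log2 fold changes of −0.22 ± 0.37 for FANCB, 0.04 ± 0.18 for FANCF, −0.06 ± 0.13 for FANCG and 0.24 ± 0.19 for FANCM. FANCB was called lower without K562 Control 1 (−0.55, adjusted p = 0.0457). Adjusted p for the called subunits ran from 6.09e-08 to 0.00222 in MEF, and the HPC-7 range was 2.05e-06 to 0.00236.

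The substrates of the core complex and the FANCJ helicase were lower in 3 of 3 genes in each mouse line, with a median of −2.13 in MEF and −2.90 in HPC-7. Fancd2, which carries the ubiquitin mark and clamps onto DNA, was at 42.4, 43.2 and 45.8 CPM in the Control libraries and 11.5, 9.57 and 8.19 CPM in the HSP90i libraries (−2.13 ± 0.11) in MEF and at 82.5, 84.3 and 85.8 CPM without and 7.995, 16.9 and 7.76 CPM with the inhibitor (−2.98 ± 0.23) in HPC-7. Its partner Fanci was at 36.1, 32.0 and 33.3 CPM without and 8.41, 7.15 and 7.92 CPM with the inhibitor (−2.10 ± 0.09) in MEF and at 54.9, 51.9 and 49.9 CPM without and 5.597, 13.5 and 6.58 CPM with the inhibitor (−2.64 ± 0.24) in HPC-7. Brip1, the FANCJ helicase that binds Brca1, was at 28.3, 29.7 and 24.4 CPM without and 4.64, 3.99 and 4.45 CPM with the inhibitor (−2.64 ± 0.11) in MEF and at 40.2, 39.4 and 35.7 CPM without and 2.69, 10.48 and 2.92 CPM with the inhibitor (−2.90 ± 0.35) in HPC-7. For all 3 genes HPC-7 treated library 2 stood above the other treated libraries, and without it Brip1 was at −3.79. FANCD2 in K562 was at 77.5, 99.3 and 103 CPM without and 93.3, 87.4 and 91.6 CPM with the inhibitor (−0.04 ± 0.14) and overlapped between groups (adjusted p = 0.888). FANCI in K562 was at 249.6, 269.7 and 301 CPM without and 228, 227 and 247 CPM with the inhibitor (−0.23 ± 0.12), wholly lower but not called (adjusted p = 0.285), and BRIP1 overlapped (−0.26 ± 0.21). Both were called lower without K562 Control 1 (−0.29, adjusted p = 0.0216 for FANCI and −0.48, adjusted p = 0.00121 for BRIP1). Adjusted p in the mouse lines ran from 1.31e-07 to 4.53e-07 in MEF, and the HPC-7 range was 2.25e-06 to 4.07e-05.

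BLM, TOP3A, RMI1 and RMI2 form the complex that resolves joined chromatids without crossing over, and 4 of 4 were called lower in each mouse line. Blm, its helicase, was at 36.4, 37.6 and 29.3 CPM in the Control libraries and 7.54, 6.78 and 6.59 CPM in the HSP90i libraries (−2.29 ± 0.12) in MEF and at 181, 174 and 163 CPM without and 70.9, 95.9 and 89.1 CPM with the inhibitor (−1.02 ± 0.11) in HPC-7. Rmi2, a small scaffold subunit, was at 4.80, 3.32 and 3.14 CPM without and 1.06, 0.279 and 0.534 CPM with the inhibitor (−2.44 ± 0.36) in MEF and at 22.0, 19.5 and 19.3 CPM without and 0.727, 3.43 and 0.365 CPM with the inhibitor (−3.83 ± 0.40) in HPC-7. Without MEF HSP90i 1 the MEF value was −3.22. In HPC-7 treated library 2 was 6.28 times the mean of the other treated libraries, and the log2 fold change was −5.15 without it. Top3a, the topoisomerase, was at 22.8, 25.2 and 23.8 CPM without and 12.1, 10.6 and 10.9 CPM with the inhibitor (−1.08 ± 0.09) in MEF and at 41.8, 43.9 and 44.6 CPM without and 23.7, 25.4 and 22.7 CPM with the inhibitor (−0.86 ± 0.08) in HPC-7. Rmi1 fell by 0.94 in MEF and by 0.51 in HPC-7, the smallest changes of the 4. In K562 BLM was at 75.0, 91.6 and 95.4 CPM without and 70.9, 71.8 and 74.1 CPM with the inhibitor (−0.27 ± 0.13) and RMI2 at 131, 93.9 and 74.8 CPM without and 72.3, 73.2 and 62.6 CPM with the inhibitor (−0.53 ± 0.20), both wholly lower and not called (adjusted p = 0.238 and 0.136). RMI1 and TOP3A overlapped between K562 groups (−0.31 ± 0.28 and −0.24 ± 0.14). BLM and RMI1 were called lower without K562 Control 1 (−0.37, adjusted p = 0.00539 and −0.60, adjusted p = 0.0019), and RMI2 without Control 3 (adjusted p = 0.0355). Adjusted p ran from 3.92e-07 to 0.00028 in MEF, and the HPC-7 range was 8.99e-06 to 0.00532.

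Among the genes of break sensing and resection 4 of 4 were called lower in each mouse line, and Exo1 had the largest fold change of the 4 in both. Exo1, the exonuclease of long-range resection, was at 31.4, 33.0 and 35.4 CPM in the Control libraries and 2.08, 3.81 and 3.03 CPM in the HSP90i libraries (−3.55 ± 0.16) in MEF, the largest fall among the 34 genes there. HPC-7 levels of Exo1 were 76.2, 80.2 and 75.1 CPM without and 4.22, 14.6 and 4.29 CPM with the inhibitor (−3.37 ± 0.34), with a log2 fold change of −4.19 without HSP90i 2. EXO1 in K562 was at 109, 125 and 144 CPM without and 84.4, 96.6 and 98.0 CPM with the inhibitor (−0.44 ± 0.14), wholly lower and not called (adjusted p = 0.0904). Rad50, the ATPase that holds broken ends together, was at 51.1, 52.0 and 37.5 CPM without and 22.86, 18.3 and 20.2 CPM with the inhibitor (−1.19 ± 0.14) in MEF and at 141, 139 and 128 CPM without and 58.7, 66.5 and 62.1 CPM with the inhibitor (−1.13 ± 0.08) in HPC-7. Nbn, its partner in the sensor complex, was at 33.5, 35.3 and 17.9 CPM without and 14.8, 11.9 and 16.2 CPM with the inhibitor (−1.02 ± 0.24) in MEF, where Control 3 was close to the treated values, and at 60.6, 55.5 and 57.9 CPM without and 23.7, 30.6 and 28.4 CPM with the inhibitor (−1.08 ± 0.10) in HPC-7. Rbbp8, the CtIP protein that starts resection, fell by 1.38 in MEF and by 0.77 in HPC-7. In K562 RBBP8 was at 41.0, 58.9 and 64.4 CPM without and 34.5, 39.9 and 38.0 CPM with the inhibitor (−0.55 ± 0.18), wholly lower and not called (adjusted p = 0.0922), while RAD50 and NBN overlapped (−0.30 ± 0.14 and 0.16 ± 0.17). Without K562 Control 1 EXO1 (−0.53, adjusted p = 0.00122), RBBP8 (−0.72, adjusted p = 0.000125) and RAD50 (−0.41, adjusted p = 0.00263) were called lower. Adjusted p ran from 2.12e-07 to 0.00405 in MEF, and the HPC-7 range was 1.46e-06 to 1.83e-05.

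Checkpoint genes had the smallest share called lower of the roles in both mouse lines. In HPC-7 2 of 5 were lower and 1 higher (median −0.02), and in MEF 4 of 5 were lower (median −1.15). Atm, the kinase activated by broken DNA ends, was not called in any line. It was at 85.5, 88.1 and 64.1 CPM without and 86.7, 82.7 and 77.3 CPM with the inhibitor (0.05 ± 0.11) in MEF, at 125, 128 and 115 CPM without and 108, 127 and 133 CPM with the inhibitor (0.00 ± 0.09) in HPC-7 and, as ATM, at 75.6, 146 and 176 CPM without and 126, 122 and 167 CPM with the inhibitor (0.06 ± 0.28) in K562, with overlap in each. Atr, the kinase activated at stalled forks, was at 70.9, 73.3 and 31.4 CPM in the Control libraries and 20.5, 15.05 and 19.2 CPM in the HSP90i libraries (−1.68 ± 0.29) in MEF, where Control 3 was far below the other Controls. Without that library the log2 fold change was −1.92. In HPC-7 Atr overlapped between groups, at 111, 110.1 and 98.6 CPM without and 95.4, 109.9 and 109 CPM with the inhibitor (−0.02 ± 0.08) (adjusted p = 0.807), and in K562 ATR did so at 33.2, 50.8 and 60.4 CPM without and 41.6, 38.0 and 49.0 CPM with the inhibitor (−0.17 ± 0.22) (adjusted p = 0.681), though it was called lower without Control 1 (−0.37, adjusted p = 0.0308).

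Chek2, the kinase downstream of Atm, went opposite ways in the mouse lines. It was at 18.7, 20.8 and 19.5 CPM in the Control libraries and 9.57, 8.45 and 8.10 CPM in the HSP90i libraries (−1.15 ± 0.10) in MEF, a fall with an adjusted p of 7.64e-06. In HPC-7 it was at 71.7, 68.9 and 64.6 CPM in the Control libraries and 102, 97.1 and 108 CPM in the HSP90i libraries (0.58 ± 0.08), a rise with an adjusted p of 6.66e-05, the only one called among the 34 genes in any line. CHEK2 in K562 was at 19.2, 15.4 and 15.8 CPM without and 17.5, 17.2 and 15.8 CPM with the inhibitor (0.00 ± 0.15), with overlap. Topbp1, which activates Atr, was at 260.0, 279.5 and 272 CPM without and 113, 121 and 119 CPM with the inhibitor (−1.20 ± 0.05) in MEF and at 508, 492 and 507 CPM without and 124, 213 and 127 CPM with the inhibitor (−1.70 ± 0.18) in HPC-7, wholly lower in both. Atrip, the partner of Atr, fell by 0.67 in MEF and by 0.33 in HPC-7. In K562 ATRIP was at 21.4, 15.6 and 15.7 CPM without and 10.99, 12.3 and 11.3 CPM with the inhibitor (−0.60 ± 0.18), wholly lower with an adjusted p of 0.0624. It was called there with library size scaling (0.0269), upper quartile factors (0.0476), DESeq2 (0.0448) and without Control 1 (0.0239). TOPBP1 overlapped between K562 groups (−0.08 ± 0.19).

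**Figure D3:**
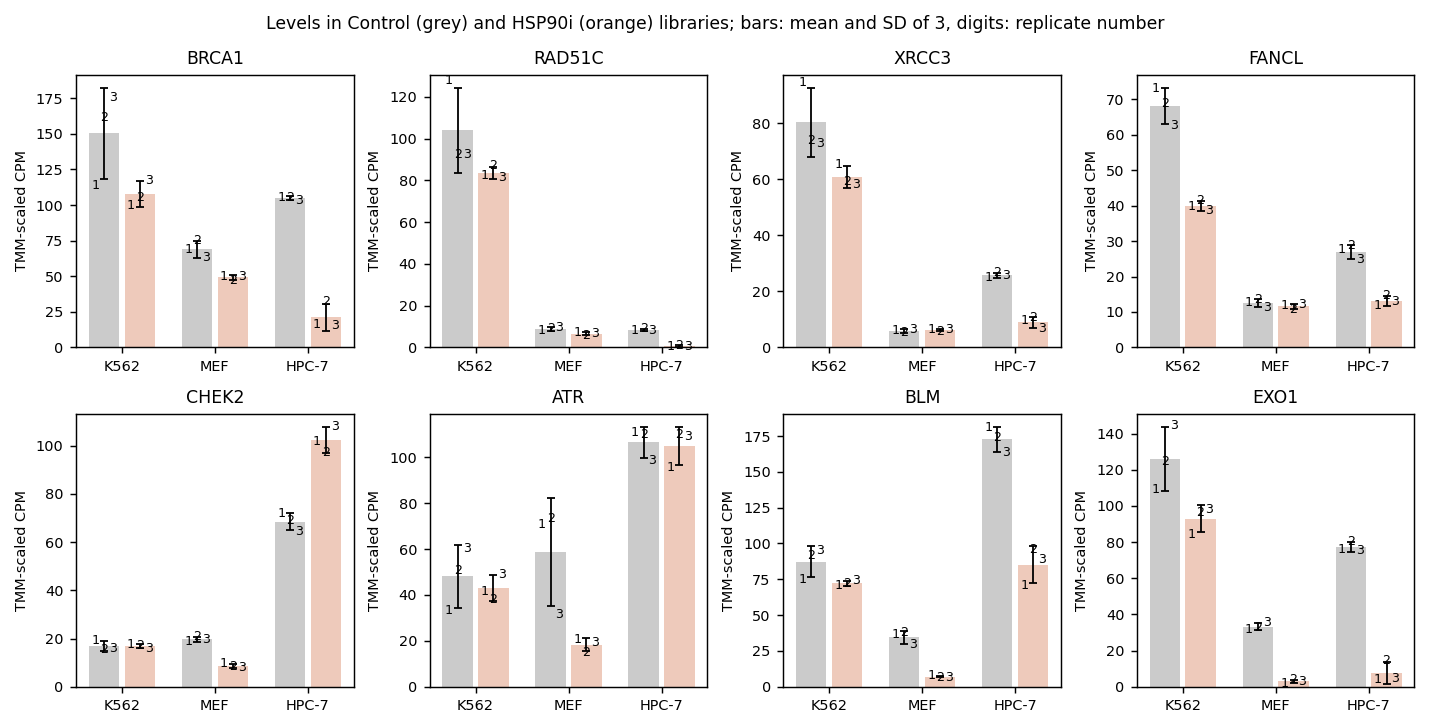
Level in CPM of BRCA1, RAD51C, XRCC3, FANCL, CHEK2, ATR, BLM and EXO1 in the Control (grey) and HSP90i (orange) groups of each line; bars are means of 3 libraries with the SD, and the digits are the replicates at their own values. CHEK2 is higher after treatment in HPC-7 and lower in MEF, ATR is called lower in MEF and not in the other lines with Control 3 apart from its group, and RAD51C is below 1 CPM in all 3 treated HPC-7 libraries.

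Whether the 2 mouse lines responded differently was tested with an interaction term, line by treatment, across their 12 libraries, where dose and line cannot be told apart. Values are the MEF response minus the HPC-7 response on the log2 scale. Of the 34 genes 7 had a more positive response in MEF and 6 a more negative one, where 25.4% and 17.8% of 13720 tested genes did, and 21 were not called. The median over all tested genes was 0.11 with TMM and −0.01 with RLE factors, which also turned the split over all genes from 3488 more positive and 2445 more negative to 2771 and 3090. With RLE factors 6 of the 34 were more positive and 8 more negative. No called gene changed sign under any scaling.

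Among genes with a larger fall in HPC-7, Rad51c stood first (3.38 ± 0.26, adjusted p = 2.03e-07), followed by Brca1 (1.95 ± 0.26, adjusted p = 3e-05) and Xrcc3 (1.70 ± 0.20, 1.25e-05). Fancl (1.04 ± 0.15), Fancd2 (0.96 ± 0.29), Fancm (0.89 ± 0.17) and Topbp1 (0.62 ± 0.21) followed. Among genes with a lower response in MEF, Chek2 stood first (−1.61 ± 0.12, adjusted p = 1.21e-07), then Atr (−1.53 ± 0.31, 0.00102) and Blm (−1.15 ± 0.17, 7.52e-05). Fancf (−0.86 ± 0.29), Fance (−0.67 ± 0.14) and Palb2 (−0.59 ± 0.15) followed. The calls of Rad51c, Brca1, Xrcc3, Fancl, Fancm, Chek2, Atr, Blm, Fance and Palb2 were kept in each of 19 alternatives, and those of the other 3 were not. Fancd2 lost its call without MEF HSP90i 1 or any 1 HPC-7 Control (adjusted p from 0.0690 to 0.0830). Fancf lost it in 6 alternatives, which were the replicate block and leaving out MEF Control 1, MEF HSP90i 1 or 3, or HPC-7 HSP90i 1 or 2 (from 0.0522 to 0.0721). Topbp1 lost it in 12 alternatives, the 3 other scalings and leaving out MEF Control 1 or 2, MEF HSP90i 2 or 3, any HPC-7 Control, or HPC-7 HSP90i 1 or 3 (from 0.0521 to 0.205). Without HPC-7 HSP90i 2 there were 22 calls, 17 more positive and 5 more negative, beside 26.6% and 18.2% of all tested genes.

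**Figure D4:**
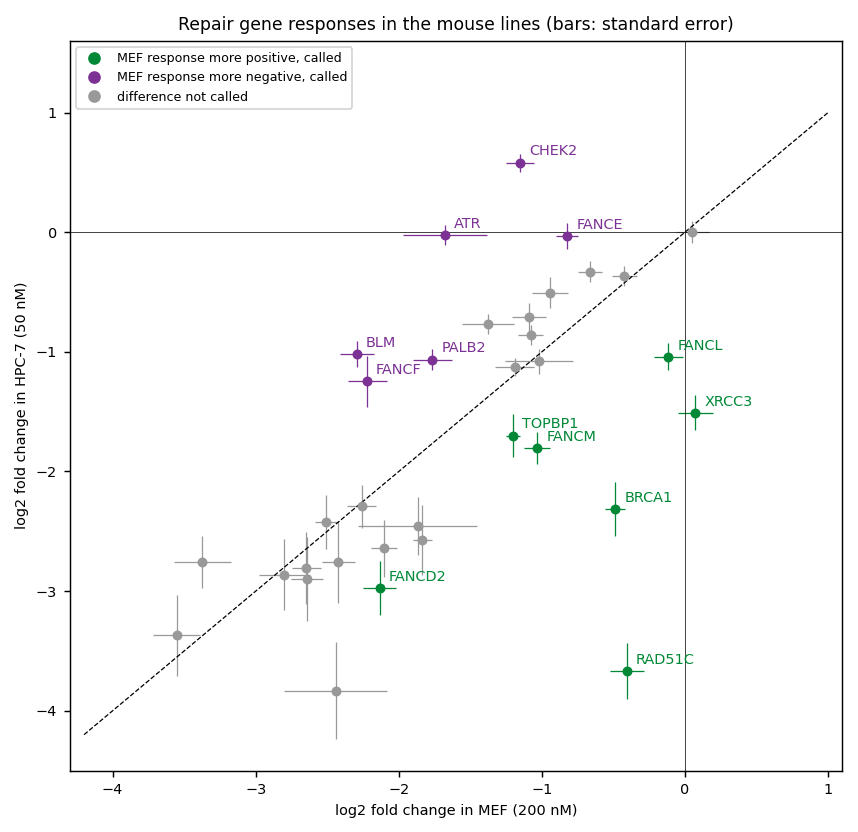
Log2 fold change of each gene in MEF (x axis, 200 nM) against HPC-7 (y axis, 50 nM) with bars of 1 standard error; the dashed line marks equal responses, and colour marks a called difference. The 7 green genes lie below the line, with RAD51C farthest from it, and the 6 purple genes above it, with CHEK2 farthest.

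Untreated MEF had lower levels of most of these genes than untreated HPC-7. In the same fit 27 of the 34 were lower in MEF and 0 higher (27 and 0 at an unadjusted p under 0.05), where 43.6% and 39.7% of all tested genes were called. DESeq2 called 18 lower and 1 higher, beside 37.2% and 43.5% of all tested genes. The median over all tested genes was −0.08 with TMM, 0.07 with RLE factors and −0.30 with library size alone, so differences of that size carry no direction. The largest were Rmi2 (−2.17), Blm (−2.13), Palb2 (−2.11) and Xrcc3 (−1.92), log2 of MEF over HPC-7. Rad51c, Xrcc2, Fancb, Fancc, Fancf, Brip1 and Rbbp8 were not called. Of the 27 calls 17 were kept in each of 18 alternatives, over which the number lower ran from 18 (with DESeq2, and without HPC-7 Control 1) to 29.

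The other genes of the pathway, a list of 57 of which 55 were found in the mouse tables, had smaller medians. In MEF 41 of 55 were lower and 6 higher (median −0.65), in HPC-7 43 were lower and 3 higher (median −0.95), and in K562 0 of 57 were called by edgeR (median −0.13), with 4 lower and 3 higher at an unadjusted p under 0.05 and 2 lower and 1 higher called by DESeq2. The largest falls in MEF were Gen1 (−3.38 ± 0.16), a nuclease for joined chromatids, Fignl1 (−3.20 ± 0.10), an ATPase of recombination, Clspn (−2.65 ± 0.08), a mediator of ATR signalling, and Polq (−2.57 ± 0.13), the polymerase of alternative end joining. Large falls in HPC-7 included Fignl1 (−3.27 ± 0.36), the nuclease Dna2 (−3.17 ± 0.42) and the checkpoint kinase Chek1 (−3.10 ± 0.39). The largest rises in MEF were Rev3l (1.46 ± 0.43), a translesion polymerase, Rad51d (0.74 ± 0.09), Slx4 (0.53 ± 0.05) and Ercc4 (0.39 ± 0.07). Those in HPC-7 were Ercc4 (0.64 ± 0.08), Rad52 (0.39 ± 0.11) and Ercc1 (0.30 ± 0.09). Ercc4 and Ercc1 encode the subunits of a crosslink-cutting nuclease.

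Other repair pathways had smaller median changes in the mouse lines. End joining genes, which rejoin breaks without a template, were 2 lower and 3 higher of 12 in MEF (median 0.00) and 8 lower and 2 higher in HPC-7 (median −0.38). Xrcc6 fell (−1.47 ± 0.06) and Polm rose (0.93 ± 0.06) in MEF, and Xrcc5 fell (−1.03 ± 0.07) and Dclre1c rose (1.12 ± 0.11) in HPC-7. In K562 1 of 14 rose, TP53BP1 (1.08 ± 0.14), which opposes resection. Mismatch and excision repair genes were 14 lower and 7 higher of 24 in MEF (median −0.31), among them Apex1 (−1.09 ± 0.05). In HPC-7 14 were lower and 6 higher (median −0.33), among them Msh6 (−1.09 ± 0.08), and in K562 UNG (−0.65 ± 0.12) and PMS1 (−0.69 ± 0.13) were the 2 lower of 24.

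Cell cycle genes also fell in both mouse lines. Of 41 genes of G1/S and replication, 41 were lower in each mouse line (medians −1.65 in MEF and −2.36 in HPC-7), with Tk1 (−3.59 ± 0.06) and Rrm2 (−3.62 ± 0.08) having the smallest p in MEF and Gins4 (−1.10 ± 0.08) and Orc6 (−1.36 ± 0.10) in HPC-7. Of 40 genes of G2/M and mitosis, 39 were lower in MEF (median −2.20), among them Birc5 (−3.20 ± 0.06) and Foxm1 (−2.45 ± 0.05). In HPC-7 38 of 39 were lower and 1 higher (median −1.94), with Plk1 (−1.94 ± 0.11) and Incenp (−1.77 ± 0.11) first by p. In K562 5 of 41 genes of G1/S were called lower and 0 higher (median −0.28), with MCM6 (−0.64 ± 0.11) and E2F1 (−0.80 ± 0.16). The log2 fold change was negative for 37 of the 41. At an unadjusted p under 0.05 edgeR gave 18 lower and 1 higher, and DESeq2 called 8 and 1. K562 differed for G2/M, where 13 of 40 were higher and 0 lower (median 0.41), with KIF20A (1.19 ± 0.13) and CCNB1 (1.04 ± 0.12). These G2/M counts were 29 and 0 at an unadjusted p under 0.05 in edgeR, and 18 and 0 by DESeq2. In HPC-7 the treated library medians of the 34 genes, of G1/S and of G2/M ran in the same order. In MEF the order of the 34 genes differed from that of G1/S and of G2/M. On the log2(CPM + 1) scale, relative to the Control mean, HPC-7 HSP90i 2 was at −1.21 for the 34 genes and −1.75 for G1/S, while treated libraries 1 and 3 were at −1.65 and −1.82 for the 34 genes and −2.91 and −2.97 for G1/S. In MEF the treated libraries ran from −1.41 to −1.25 for the 34 genes and from −1.65 to −1.50 for G1/S. HSP90i 1 was the highest there for the 34 genes and HSP90i 3 for G1/S and G2/M. For HPC-7 HSP90i 1, 2 and 3 the G2/M medians were −2.07, −1.55 and −2.11. Those of the other pathway genes were −0.95, −0.78 and −0.95. K562 Control 1 was at −0.23 for the 34 genes but at −0.03 for G1/S. The part of cell cycle genes in the fall of the repair genes was not tested.

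**Figure D5:**
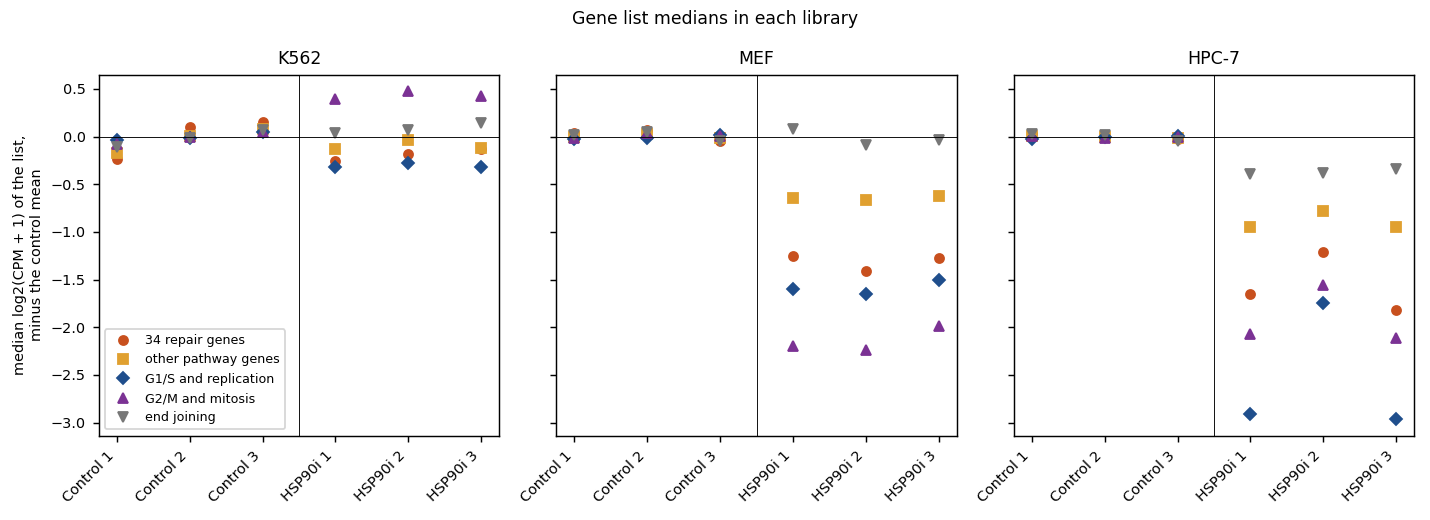
Median of log2(CPM + 1) of each gene list in every library, minus the Control mean of the line, for the 34 repair genes, the other pathway genes, G1/S and replication, G2/M and mitosis, and end joining. In the mouse lines the treated medians of the 34 genes lie between those of the other pathway genes and of G1/S, HPC-7 HSP90i 2 is at −1.21 for the 34 genes where its neighbours are at −1.65 and −1.82, and in K562 the G2/M medians lie above 0.

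Positions may bear on a few of these values, which was not tested. On GRCm38.p6 the 34 genes lie on 14 chromosomes, 19 overlap another annotated gene and 12 overlap a protein-coding one. Among the genes whose responses differed between mouse lines, Xrcc3 (chr12:111803192-111813893) overlaps Klc1, Fancl (chr11:26387084-26471883) overlaps Vrk2, Fancd2 overlaps Fancd2os, Fancf overlaps Gas2 and Atr overlaps 1700065D16Rik, all protein-coding. Atr also overlaps a lncRNA and a pseudogene, Fancd2 a lncRNA and Blm a pseudogene. Whether counting used strand was not given in the sources used here, and reads of such neighbours may be shared. Rad51c (chr11:87376645-87404954), Brca1 (chr11:101488761-101551955) and Chek2 (chr5:110839800-110874140), with Fance, Fancm, Palb2 and Topbp1, overlap no other annotated gene.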

How the data were processed

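RNA-seq counts from K562, MEF and HPC-7 were used, 3 Control and 3 HSP90i libraries per line, grouped by sample title. Each line has 1 table, in which the authors deposited whole-number counts for every gene, not normalized. The submitters' processing notes name MACS2, Bowtie2, DESeq2, featureCounts, Picard, TopHat2 2.0.13 and Trim Galore without a role. For K562 the genome build used in counting was not given in the sources used here. No column was left unmapped, and the ChIP-seq peak list of the series was not used here.

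Genes passing filterByExpr were scaled with TMM and tested with edgeR 4.0.16 (quasi-likelihood, R 4.3.3) within each line, over all tested genes, with Benjamini-Hochberg adjustment at 0.05. The standard error was derived from the fold change and its F statistic. A joint fit over the 12 mouse libraries gave the interaction and the untreated comparison. Levels between genes were not compared, since counts were not divided by gene length. The fits were also run on simulated data in which far fewer genes changed than were called in the mouse lines. No result here rests on that run. Alternatives were RLE, library size and upper quartile scaling, DESeq2 1.42.0, limma-voom 3.58.1 with sample weights, no filter, 1 CPM or more in 3 libraries, leaving out single libraries, a block for the replicate number, and the joint fit for each line's response.

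Named genes were, per line, up to 20 called or non-overlapping genes by smallest adjusted p, with BRCA1, BRCA2, FANCD2, ATM and ATR always. Library values of genes beyond these 20, among them Xrcc3, Fancl and Fance, were added after their values were seen, so that each of the 34 is accounted for. Of the other pathway genes up to 4 per direction by size of change are named, and of each comparison list up to 2 by smallest p. Some genes that this rule names are not reported here. The 34 genes and all lists were chosen with earlier results of these data known. RefSeq promoter windows (GRCm38.p6) were matched by symbol for 25 of the 34 genes. Figures were drawn with matplotlib 3.10.9.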

Additional observations from a re-analysis of the deposited data

Results flagged for a closer look

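The response to the inhibitor differed between MEF and HPC-7, by the interaction test over the 12 mouse libraries (edgeR, Benjamini-Hochberg adjustment), for 13 of the 34 genes. Over all 13720 tested genes 25.4% were more positive and 17.8% more negative, so with all libraries the count of these genes does not stand above the background. Without HPC-7 HSP90i 2 the count was 22. In that fit 26.6% of all 13956 tested genes were more positive and 18.2% more negative. The MEF response was more positive by 3.38 for Rad51c, 1.95 for Brca1, 1.70 for Xrcc3, 1.04 for Fancl, 0.96 for Fancd2, 0.89 for Fancm and 0.62 for Topbp1, on the log2 scale. It was more negative, at −1.61 for Chek2, −1.53 for Atr, −1.15 for Blm, −0.86 for Fancf, −0.67 for Fance and −0.59 for Palb2. The calls of Topbp1, Fancf and Fancd2 were lost in 12, 6 and 4 of 19 alternatives. The lines received different doses, so line and dose cannot be told apart.

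Another 3 genes moved in opposite directions in the human and the mouse lines in every library, and this difference was not tested. In K562 the treated values lay wholly above the Controls for 3 of the 34 genes, against 17.4% of all 13456 tested genes. The K562 side of this pattern therefore does not stand above the background. The log2 fold change of RAD54L was 0.43 in K562 but −2.51 in MEF and −2.43 for HPC-7. In the same order it was 0.36, −2.42 and −2.75 for RAD54B and 0.19, −1.09 and −0.71 for FANCC. With all 6 libraries edgeR called none of these 3 K562 changes, while DESeq2 (adjusted p = 0.0384) and limma-voom with sample weights (7.46e-05) called RAD54L higher. RAD54B and FANCC were not called in K562 in any of 14 alternatives.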

How the results depend on the processing

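The number of K562 genes called was 2 in the fit with all libraries, and 4 with library size alone, 4 with upper quartile factors, 4 with DESeq2 and 20 with sample weights. It ran from 0 to 19 when single libraries were left out, 19 without K562 Control 1, 1 without Control 2 and 0 without any 1 of the treated libraries. Scaling moved the K562 split over all genes from 688 higher and 803 lower to 435 and 1195 with library size alone and to 535 and 981 with upper quartile factors, and the median over all genes to −0.13 and −0.09. The same K562 split was 2742 and 2849 with sample weights, 1922 and 1995 without Control 1, 241 and 328 without Control 2, and 173 to 202 and 171 to 216 without 1 treated library. The MEF count stayed between 29 and 31 and the HPC-7 count at 31 in every alternative. The MEF median of −1.53 was −1.41 in the joint fit and ran from −1.66 to −1.37 with single libraries left out. The median over all MEF genes moved from −0.01 to 0.09 with upper quartile factors. The HPC-7 median of −1.61 ran from −1.82 to −1.46, reaching −1.82 without HPC-7 HSP90i 2. The interaction count of 13 ran from 11 to 22, with 22 without HPC-7 HSP90i 2, where the Exo1 difference turned from −0.06 to 0.74 (adjusted p = 0.0173, edgeR), against −0.38 without HPC-7 HSP90i 1. Leaving out any HPC-7 Control turned the interaction split over all genes from 3488 and 2445 to between 2139 and 2182 more positive and 3276 and 3343 more negative. The cause of these shifts was not tested. In the untreated comparison the calls, 27 with all libraries, ran from 19 to 29, and the genes lower in MEF from 18 to 29. Single calls lost in some alternative were 2 of 2 in K562, 2 of 31 in MEF (Brca1 and Rad51c), 0 of 31 in HPC-7, 3 of 13 for the interaction and 10 of 27 for the untreated lines.

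With the replicate number as a block, 2 genes were called in K562, 31 in MEF, 31 in HPC-7 and 12 for the interaction, where Fancf was lost (adjusted p = 0.0522). Of all tested genes the block called 6.48% higher and 6.97% lower in K562, 34.1% and 37.2% in MEF, and 34.6% and 34.8% in HPC-7. For the interaction it called 23.3% more positive and 16.5% more negative. The K562 and interaction counts do not stand above these shares. The labels give the replicates a number only. Across genes, deviations of same-numbered Control and HSP90i libraries correlated at 0.281, 0.0417 and 0.451 in K562. The values were 0.268, −0.223 and −0.246 in MEF and 0.00640, 0.0235 and −0.0898 in HPC-7. Between different numbers they ran from −0.387 to 0.17 in K562, −0.310 to 0.384 in MEF and −0.116 to 0.104 in HPC-7. In K562 replicates 1 and 3 thus correlated most with their own number. The main fits did not take the numbers as pairs, and whether they are pairs was not tested.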
